A study of Populus tremula x Populus alba with 3 samples.

Results

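Described here are 5 genes of hormone synthesis, breakdown or signalling, from the poplar genes listed as gaining DNA methylation and changing in expression when the demethylase gene PtaDML10 was knocked down. They are the homologues of the Arabidopsis genes TAR2 (Potri.012G083300), BRXL4 (Potri.018G064900), ARR12 (Potri.018G111300), HAI3 (Potri.001G092100) and BAS1 (Potri.001G032800). They were taken by identifier from any of the 6 deposited tables, which together list 577 genes. All 5 were found, every one among the 524 genes listed for their transcribed region and none among the 83 listed for their promoter. Each gene name and Arabidopsis locus is the one the tables pair with the identifier, and no other listed gene is paired with any of these 5 loci.

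The plants were hybrid poplar, Populus tremula x Populus alba, of 1 laboratory clone. Wild type (WT) was compared with KD2 and KD5, which are separate RNA interference lines against PtaDML10, a member of the DEMETER-like DNA glycosylases that excise 5-methylcytosine. All 3 genotypes spent 4 weeks in long days (16 h light, 21 °C), 12 weeks in short days (8 h light, 19 °C) and 4 weeks in short days at 4 °C. Apical buds that had not begun to open, 15 from 15 plants per genotype, gave 1 whole genome bisulfite sample for each genotype. The promoter that drives the interference construct is not given in the sources used here. With 1 bisulfite sample per genotype, methylation differences have no replicate check, and sequencing depth and coverage are unknown. Bisulfite samples do not measure expression. The samples behind the expression values are not among these 3, so their replication is unknown here.

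The hormones concerned act by distinct routes. Auxin is made from tryptophan by an aminotransferase step followed by oxidation, and it directs growth and organ formation at the shoot apex. Cytokinin is sensed through a phosphorelay that ends on response regulators in the nucleus, and it sustains the shoot meristem. Abscisic acid acts by relieving a block that protein phosphatases of type PP2C place on a kinase cascade, and in poplar its signalling is needed for bud dormancy. Brassinosteroids promote cell expansion and are switched off by hydroxylating cytochrome P450 enzymes.

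The tables give, for each gene, the sequence context of the gained methylation (CG, CHG or CHH, with H standing for any base but G) and the annotated pieces of the gene listed with it, read here as those a methylated region overlaps. Expression is given as 1 logFC per gene for both lines together and 1 logCPM, the log of the read count scaled to library size, which is not adjusted for gene length. Both were read as log2 values. Neither the log base nor the direction of the logFC is stated in the tables, and the methylation differences beside them are negative under a title that calls the regions hypermethylated. Genes are therefore described by the sign of their logFC and not as induced or repressed. The authors' deposited tables hold neither the expression of single libraries nor, for transcribed regions, the size of the methylation gain.

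The homologues of TAR2, BRXL4 and HAI3 had a negative logFC and those of ARR12 and BAS1 a positive one. The logFC values in the authors' deposited tables were -1.84 for TAR2, -1.55 for BRXL4, -1.25 for HAI3, 1.31 for ARR12 and 0.93 for BAS1. If the base is 2, these are differences of 3.58, 2.93, 2.37, 2.47 and 1.91-fold. A negative sign was thus found in 3 of 5 genes, against 294 of the 577 listed genes (51.0%). That share is over all expression levels. TAR2 and BRXL4 lie in the lowest quintile by logCPM, where 30.2% of listed genes were negative. HAI3 and ARR12 lie in the second lowest (23.5% negative) and BAS1 in the middle one (41.7%). The median logFC was -1.25 for the 5 genes and -0.63 for all listed genes. No listed gene lies between -0.62 and 0.73, so such medians jump with the sign of a single gene.

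**Figure D1:**
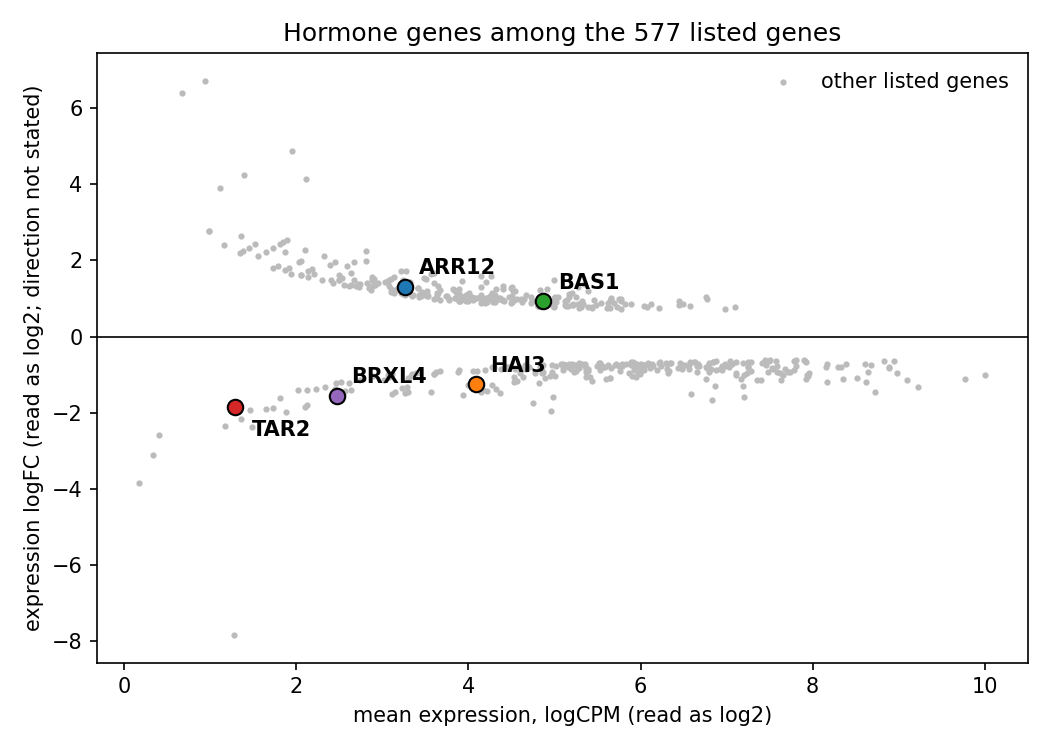
Expression logFC (vertical) against logCPM (horizontal), both read as log2, for the listed genes (grey points, 1 per gene) and the 5 hormone genes (coloured points with names). TAR2 lies furthest left and lowest of the hormone genes, at a logCPM of 1.29 and a logFC of -1.84, and the grey points show that the size of the logFC narrows as logCPM rises.

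Every listed gene had an expression FDR under 0.05 (100%), the false discovery rate in the authors' deposited tables, so passing it says nothing particular about the hormone genes. Their FDR values in the authors' deposited tables were 3.09e-04 for HAI3, 0.00359 for BRXL4, 0.0118 for ARR12, 0.0142 for BAS1 and 0.0360 for TAR2. HAI3 ranked 67 and TAR2 486 of 577 by the authors' p-value. An FDR below 0.005 was reached by 2 of the 5 genes, HAI3 and BRXL4, against 31.7% of listed genes. TAR2, with the largest absolute logFC of the 5, thus had the highest FDR.

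TAR2 encodes a tryptophan aminotransferase that makes indolepyruvate, the precursor of auxin, and its homologue is the auxin synthesis gene of the listing. The gene lies on the plus strand of chromosome 12, from 11036296 to 11040930, and spans 4635 bases. It was listed in CG, CHG and CHH, as were 29 of the 524 transcribed region genes (5.53%). The contexts did not point to the same piece of the gene. In CG the listed piece was coding segment 1 (11036955 to 11037220, 266 bases), which covers bases 660 to 925 of the gene. In CHG and in CHH the listed pieces were coding segment 5 (11040425 to 11040651, 227 bases) and the 3′ UTR that follows it (11040652 to 11040930, 279 bases). These run from base 4130 to the end of the gene, or from 89.1% of its length onwards. TAR2 was therefore listed near its start for CG and at its end for both non-CG contexts. Among the 29 genes in all 3 contexts, the kinds of feature differed between contexts for 17 and were the same for 12.

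With a logFC of -1.84, TAR2 had the 14th most negative value of the 577 listed genes and the 3rd most negative of the 29 in all 3 contexts. Of those 29 genes, 10 had a negative logFC (34.5%). Its logCPM of 1.29 was low: 1.91% of listed genes had a lower one. In the quintile of listed genes with the lowest logCPM (0.18 to 3.21), 35 of 116 genes had a negative logFC (30.2%), and TAR2 exceeded 22 of those 35 in absolute logFC. The median absolute logFC of that quintile was 1.61, against 0.99 over all listed genes.

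BRXL4 belongs to the BREVIS RADIX family, plant-specific proteins whose founding member in Arabidopsis acts in root growth and has been tied to brassinosteroid and auxin. Its homologue lies on the plus strand of chromosome 18, from 8216083 to 8223486, and at 7404 bases is the longest of the 5 genes. The span exceeded that of 81.2% of the 506 listed genes with a single set of gene coordinates. Like TAR2 it was listed in all 3 contexts, but here the listed pieces were the same in each. They were 5′ UTR segments between 8216083 and 8216510, the first 428 bases or 5.78% of the gene, with no coding segment and no 3′ UTR. The transcript models listed were numbers 2 and 3, and the annotation flags neither as the longest model of the gene.

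One other gene had the 5′ UTR as its only listed feature in all 3 contexts, a Rab5-interacting family gene (Potri.008G102200), singled out after the values were seen. Its logFC had the opposite sign, 0.95 in the authors' deposited tables, against -1.55 for BRXL4. The 2 genes are not fully alike: Potri.008G102200 was also listed for its promoter, in CG and CHG, and its logCPM was 4.87. BRXL4 had the 21st most negative logFC of the 577 genes and the 4th of the 29 in all 3 contexts. Its logCPM was 2.47, in the same quintile as TAR2, where it exceeded 19 of the 35 negative genes in absolute logFC.

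**Figure D2:**
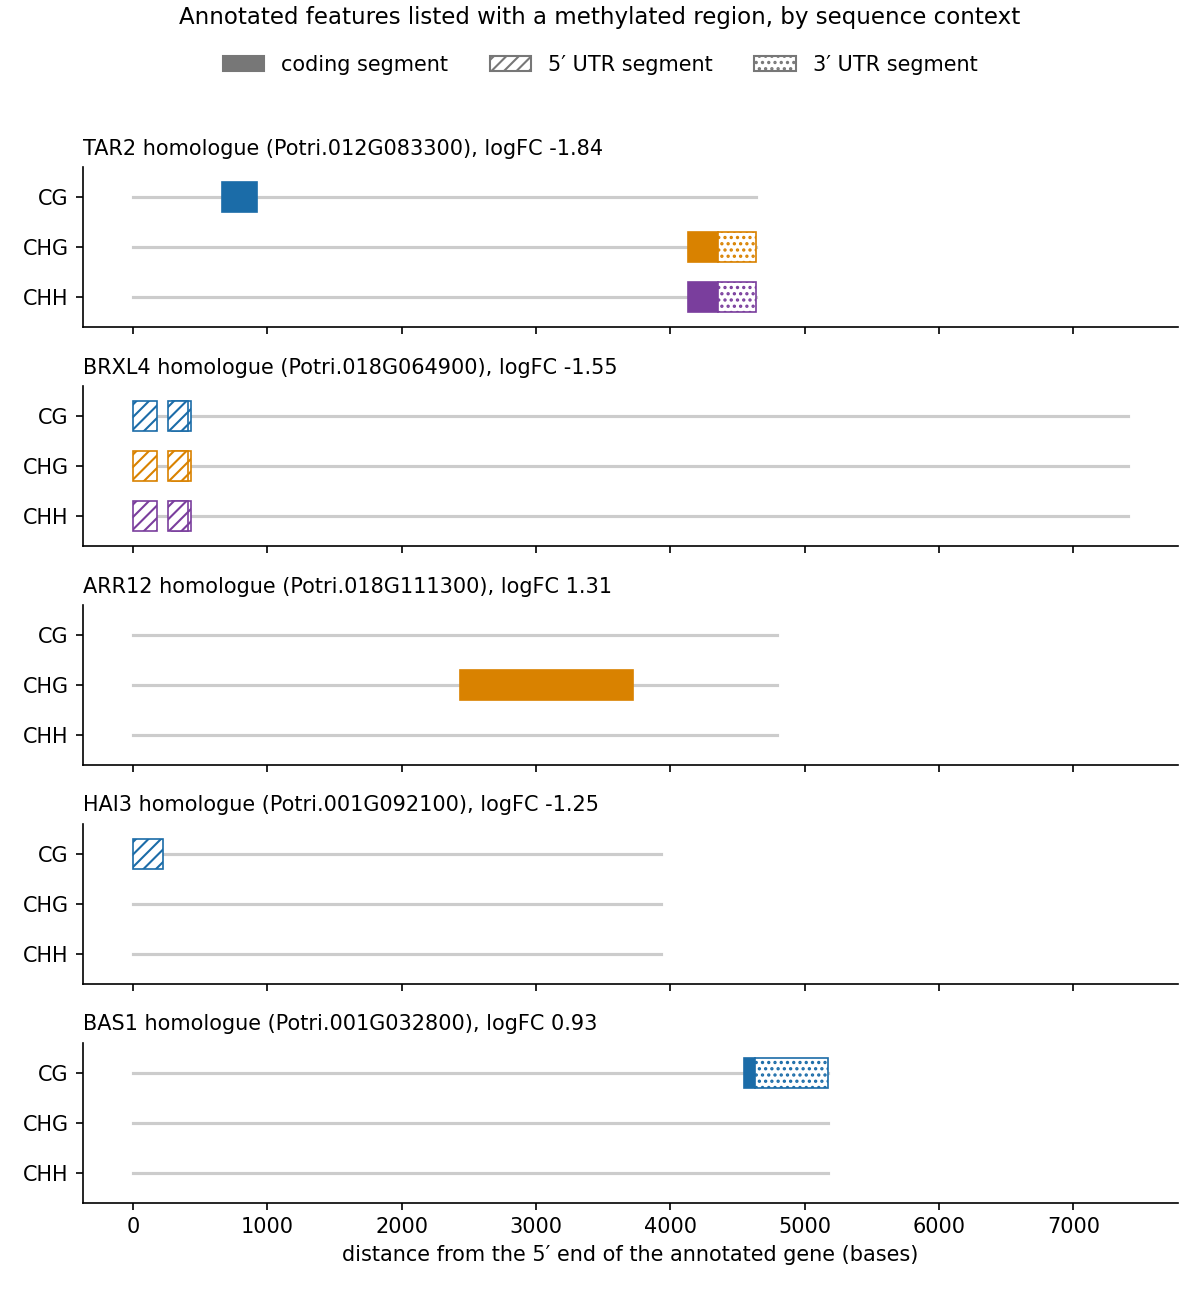
Maps of the 5 genes drawn to 1 scale, with distance in bases from the 5′ end of the gene (horizontal) and a line for each sequence context (vertical). Boxes are the annotated segments listed with a methylated region: filled for coding sequence, hatched for 5′ UTR and dotted for 3′ UTR, and an empty line means that the gene is not listed in that context. BRXL4 and HAI3 have boxes within the first 428 and 220 bases, BAS1 at its end, and TAR2 near its start in CG but at its end in CHG and CHH.

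ARR12 is a type-B response regulator, a transcription factor at the end of the cytokinin phosphorelay that switches on cytokinin target genes. Its homologue lies on the minus strand of chromosome 18, from 13710302 to 13715092, and spans 4791 bases. Of the 5 genes it was the only one not listed in CG: it appeared in CHG alone, as did 72 of the 524 transcribed region genes. The listed piece was coding segment 5 (13711374 to 13712657), at 1284 bases the longest single segment listed for any of the 5 genes. Counted from the 5′ end of the gene it covers bases 2436 to 3719, from 50.8% to 77.6% of the length. No UTR was listed for it.

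Its logFC of 1.31 was positive, whereas 43 of the 72 genes in CHG alone had a negative one. A wider set is the 178 genes listed in CHG with or without other contexts. In CHG, coding sequence was the only listed feature for 65 of these 178. Of these 65 genes, 22 had a negative logFC (33.8%), so ARR12 had the sign more common among them. Its logCPM was 3.26, in the second lowest quintile, where 88 of 115 genes were positive (76.5%). ARR12 exceeded 71 of those 88 in logFC.

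HAI3 is 1 of the PP2C phosphatases that hold back abscisic acid signalling and are themselves induced by the hormone in Arabidopsis. The homologue lies on the plus strand of chromosome 1, from 7237928 to 7241855, and spans 3928 bases. It was listed in CG alone, as were 270 of the 524 genes. The sole listed piece was 5′ UTR segment 1 (7237928 to 7238147), the first 220 bases or 5.60% of the gene. The transcript model listed, number 1, ends at 7240474 and spans 2547 bases, short of the end of the annotated gene.

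A 5′ UTR without coding sequence or 3′ UTR was listed for 20 of 388 CG genes (5.15%, exact Clopper-Pearson 95% interval 3.18 to 7.85, counting error only). BRXL4 and HAI3 were both among these 20. Of the 20 genes 14 had a negative logFC (70.0%), with a median of -0.74, and both hormone genes lay below that median. In the second lowest quintile by logCPM, where HAI3 lay with a logCPM of 4.08, 27 of 115 genes had a negative logFC (23.5%), and HAI3 exceeded 16 of the 27 in absolute logFC. Its logFC of -1.25 was the 50th most negative of the 577.

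BAS1 is the cytochrome P450 CYP734A1, which hydroxylates active brassinosteroids and so ends their action. Its homologue lies on the plus strand of chromosome 1, from 2404012 to 2409183, and spans 5172 bases. It was listed in CG alone, with coding segment 7 (2408556 to 2408636, 81 bases) and the 3′ UTR (2408637 to 2409183, 547 bases). These cover bases 4545 to 5172, from 87.9% of the gene to its end. Coding sequence together with 3′ UTR was listed for 70 of 388 CG genes (18%, exact Clopper-Pearson 95% interval 14.3 to 22.2), of which 27 had a negative logFC. BAS1, like most of these, was positive. Its logFC of 0.93 equals the median absolute logFC of the middle quintile by logCPM, in which it lies with a logCPM of 4.87.

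The 3′ end of BAS1 also lies inside the promoter window of the next gene. The promoter tables list, in CG, a window of 2000 bases from 2408700 to 2410699 for Potri.001G032900, the homologue of cystatin B, an inhibitor of cysteine proteases. Of that window 484 bases, 2408700 to 2409183, are 3′ UTR of BAS1. From the authors' deposited tables, the methylation gain of the window was 23.3 percentage points in KD2 and 24.5 in KD5, reading the deposited difference as WT minus knockdown. These were the 15th and the 26th largest of the 49 CG windows. The same tables give Potri.001G032900 a logFC of -0.78, opposite in sign to that of BAS1, a logCPM of 6.95 and an FDR of 0.00687. Such an overlap was found for 4 of the 506 genes with a single set of coordinates, each in a context in which the gene itself was listed, and in 2 of these 4 pairs the signs were opposite. Whether 1 methylated region accounts for both entries was not tested, since the transcribed region tables give no region coordinates. No listed promoter window of another gene overlapped TAR2, BRXL4, ARR12 or HAI3.

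**Figure D3:**
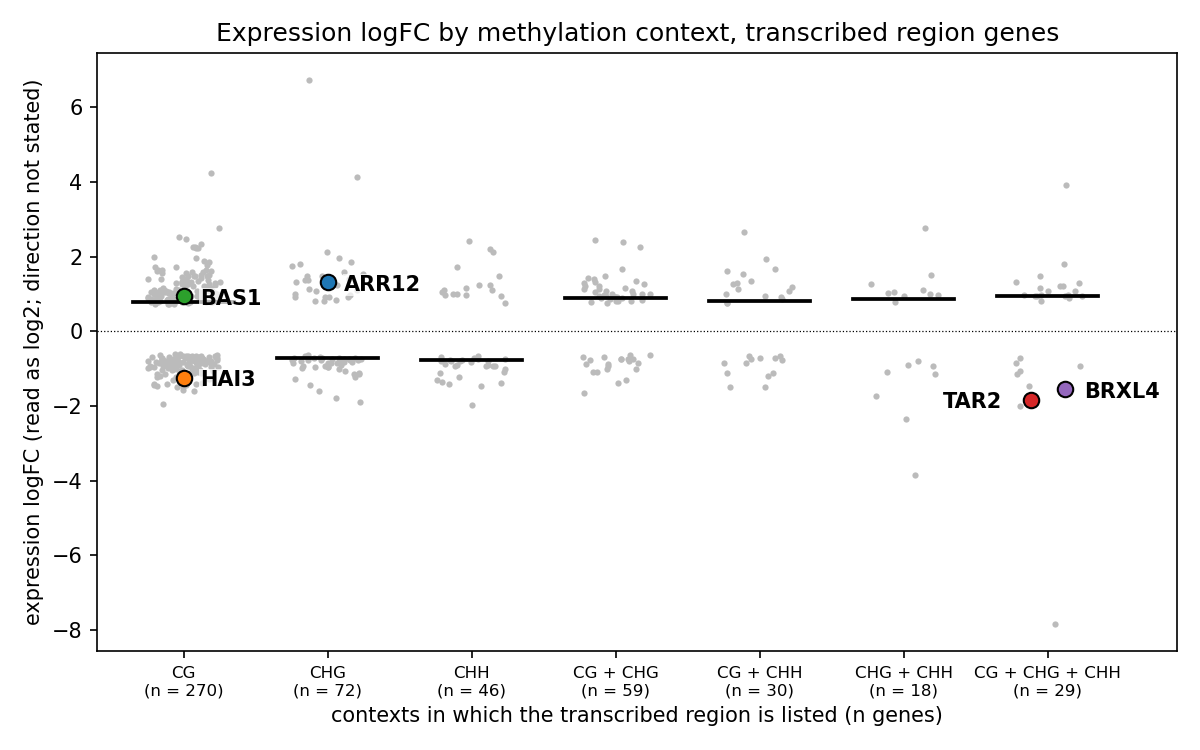
Expression logFC (vertical, read as log2) of the 524 transcribed region genes by the set of contexts in which each was listed (horizontal, with the number of genes), jittered sideways, with black bars at the medians and the 5 hormone genes coloured and named. TAR2 and BRXL4 are at -1.84 and -1.55 in the group of all 3 contexts, whose median is 0.94, while HAI3 and BAS1 lie on opposite sides of 0 among genes in CG alone.

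Set side by side, the 5 genes shared no single context and no single piece of the gene. CG was listed for 4 of them, CHG for 3 and CHH for 2, making 9 listings in all. Of the 524 transcribed region genes, 388 were listed in CG, 178 in CHG and 123 in CHH. A single context was listed for 3 of the 5, against 74.0% of transcribed region genes. Coding sequence was listed for 3 (69.1% of transcribed region genes), 5′ UTR for 2 (17.0%) and 3′ UTR for 2 (34.0%). The 2 genes with only 5′ UTR listed, BRXL4 and HAI3, had negative values. Of all such genes, 14 of 20 in CG (70.0%), 6 of 10 in CHG (60.0%) and 5 of 9 in CHH (55.6%) were negative. BRXL4 is itself in all 3 of these counts and HAI3 in that for CG, so the counts are not independent. The 2 with coding sequence and 3′ UTR (21.9% of transcribed region genes), TAR2 and BAS1, had opposite signs. An absolute logFC of at least 1 was found for 4 of the 5 genes, BAS1 being the exception, against 47.8% of listed genes. That share is over all expression levels, whereas these 4 genes lie in the lowest and second lowest quintiles by logCPM. The median absolute logFC of all listed genes there was 1.61 and 1.10, so values above 1 were common at that expression. Since all 5 were picked from genes already past the authors' thresholds, these counts describe them and are no test.

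The other genes of these pathways were sought with 9 hormone lists, matched to the Arabidopsis loci and the words of the annotation. The lists include the loci of the 5 genes, so finding these was fixed in advance, and they found no others. The auxin, cytokinin and abscisic acid lists held 1 gene each and the brassinosteroid list 2, whereas the gibberellin, ethylene, jasmonate, salicylic acid and strigolactone lists held none. Because a gene is listed only if it passed thresholds for both methylation and expression, an empty list does not show that those pathways were unchanged.

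Reading all listed names afterwards added 6 hormone-related genes that the lists had missed, chosen with their values in view. Among them ROT3 (Potri.007G018400), a P450 of brassinosteroid synthesis in Arabidopsis, was given a logFC of 1.37 by the authors' deposited tables and was listed in CHG over coding sequence and 3′ UTR. CBL9 (Potri.001G150200), a calcium sensor acting in abscisic acid responses, had 1.40 in the authors' deposited tables. PLDALPHA1 (Potri.003G032800), a phospholipase D whose product binds a PP2C of that pathway in Arabidopsis, had -1.04, per the authors' deposited tables. NINJA (Potri.006G156100), the adaptor that links JAZ repressors of jasmonate signalling to a corepressor, had -1.06 in the authors' deposited tables. PED1 (Potri.001G051900), a peroxisomal thiolase used in jasmonate synthesis, had -0.94, and AXR6 (Potri.005G027900), the cullin of the ubiquitin ligases that include the auxin receptor, had -0.73, again from the authors' deposited tables. All 6 were listed for the transcribed region, ROT3, CBL9, PED1 and AXR6 in CHG and NINJA and PLDALPHA1 in CG.

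For each of the 5 genes the most similar listed gene was sought among those with the same contexts, gene parts and feature kinds. Feature kinds were pooled over the contexts of a gene, so they need not match context by context. Similarity was the distance in logFC and logCPM in units of their SD over the 577 genes. ARR12 was nearest to CBL9, at 0.200 SD among 19 candidates. BAS1 was nearest to a heat shock protein 70 family gene (Potri.004G016700), at 0.0633 SD among 49, and HAI3 to chitinase A (Potri.014G092800), at 0.432 SD among 10. TAR2 had 6 candidates, of which the nearest was the small GTPase gene ROP4 (Potri.013G123800), at 1.86 SD. BRXL4 had no candidate with the same pattern, since Potri.008G102200 was also listed for its promoter.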

How the data were processed

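The methylation measurements come from whole genome bisulfite sequencing of 1 pooled bud sample each of WT, KD2 and KD5. Bismark and methylKit were used, per the submitters' processing notes. Their versions and settings and the genome build were not given in the sources used here, so coordinates are printed as the tables give them. The authors deposited 6 tables of their own comparisons, with a log2 fold change (logFC) and log2 CPM (logCPM) of expression, read as log2 although the base is not stated. A p-value and an FDR of expression were deposited by the authors in the same tables. The expression values do not come from the bisulfite samples, and the number of samples behind them is unknown here. Methylation differences, in signed percentage points, were deposited for promoters and turned in sign to give gains.

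From these, each gene was counted once, and ranks, shares, places within genes and overlaps of coordinates were computed with Python 3.11.15, pandas 2.3.3 and scipy 1.17.1. Quintiles by logCPM hold 115 or 116 genes. No test of the 5 genes was made. The members, lists and settings were chosen with earlier results of these data known. Named genes are the 5 members, every gene of a hormone list and the nearest gene in pattern. Genes named outside this rule, the cystatin B homologue and Potri.008G102200 included, were chosen after their values were seen. Alternatives were an FDR below 0.005, an absolute logFC of at least 1, transcribed region tables only, Arabidopsis loci alone, the mean, and leaving out each gene. A second block of gene coordinates in the transcribed region tables, empty for some genes, has no stated meaning and was not used.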

Additional observations from a re-analysis of the deposited data

How the results depend on the processing

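Restricting to an expression FDR below 0.005 left 2 of the 5 hormone genes, both negative (100% against 60.0%), and 1 of them in more than 1 context. Leaving out each gene in turn gave a share of negative values of 50.0% to 75.0%, a median logFC of -1.40 to -0.16 and 1 to 2 genes in more than 1 context; the extremes come from so few genes by construction. The median was -0.16 without TAR2 or without BRXL4 and -0.31 without HAI3, and the mean of all 5 was -0.48. An absolute logFC of at least 1 left 4 genes (75.0% negative, median -1.40). The negative share of all listed genes under this filter or the FDR filter was not computed, so 51.0% is no background for these shares. In the lowest and second lowest quintiles by logCPM, where these 4 genes lie, 30.2% and 23.5% of listed genes were negative. Transcribed region tables only and Arabidopsis loci alone changed no value. Neither could, since all 5 genes are listed for the transcribed region and the lists include their loci. With the 6 genes added after the names were read, 11 hormone-related genes were listed, 63.6% of them negative, against 51.0% of all listed genes. No paired analysis was possible because each genotype has 1 bisulfite sample and the tables hold no value per sample. Methylation differences were deposited for promoters only, so the size of a methylation gain within these 5 genes could not be given. Its error could not be given either, and depth is unknown.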
